A study of Drosophila sechellia and Drosophila simulans with 8 samples.

Results

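The vacuolar proton pump, or V-ATPase, of Drosophila sechellia and Drosophila simulans was represented by 32 probe sets of 31 genes, out of 18769 probe sets that are not controls and 11982 genes with a probe set of their own. Members were all probe sets whose only gene symbol in the probe annotation begins with Vha. They comprised 11 probe sets of 11 genes of the V1 sector and 21 probe sets of 20 genes of the V0 sector with its accessory proteins. RNA from adult female bodies was measured on 8 Affymetrix arrays designed for D. melanogaster. The labels give 4 groups of 2 arrays, which were sechellia choice, sechellia no choice, simulans choice and simulans no choice, where the choice concerned a blend of octanoic and hexanoic acid. All flies were reared at 25 °C on one medium, and the sources used here do not give the strains, the age of the flies, how many were pooled or the form of the choice assay. The labels only number the arrays within a group, so the spread that p-values measure here is that between arrays and may be technical.

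The V-ATPase is a rotary machine that uses ATP to drive protons across membranes. Its V1 sector lies in the cytoplasm and splits ATP, and its V0 sector lies in the membrane and carries the protons. The pump acidifies lysosomes and other compartments in every cell, and in insects it also sits in the plasma membrane of Malpighian tubules and of acid-secreting midgut cells, where it energises ion transport. Flies carry several gene copies, or paralogues, for many of its subunits, and in D. melanogaster some of them are known chiefly from the testis. The fruit of the sechellia host plant is rich in both acids of the blend.

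The signals of array 1 of sechellia choice were unlike those of the other arrays. Across probe sets it correlated with them at 0.674 to 0.72, where the other 7 correlated at 0.912 to 0.969 with each other. The median signal of 27 Bacillus control probe sets, which match no fly RNA, was 126 on it and 12.3 to 21.5 on the others. Its V-ATPase signals were compressed as well: 17 of the 19 members that were well measured (defined below) were lower on it than on array 2 of sechellia choice, at ratios down to 0.312, and 12 of the other 13 members were higher, at up to 20.3 times. Results below therefore rest on the other 7 arrays, with 3 for sechellia and 4 for simulans, and the values with all 8 arrays stand beside them. In the fit of 7 arrays, array 2 by itself stands for sechellia choice, and its variation is taken to equal that seen in the groups with both arrays. Among markers of the labelled tissue, 6 probe sets of yolk, chorion and vitelline membrane genes had summed signals of 117911 in sechellia choice, 87039 and 101596 in sechellia no choice, 111384.5 and 112769.8 in simulans choice, and 110915 and 128427 in simulans no choice. With 7 arrays, 1 of the 6 was called higher in sechellia (Yp3, 0.31 ± 0.08) and 3 lower (Cp16 at -1.78 ± 0.06, Cp18 at -1.70 ± 0.05 and Vm26Aa at -0.27 ± 0.06), and 3 were called higher with choice in sechellia (1 with all 8 arrays), against 0 with choice in simulans; the part of ovary content in the results below was not tested. Of all tested probe sets, 32.5% were called between the species with 7 arrays. For choice the shares were 2.49% in sechellia (0.0533% with all 8 arrays) and 0.274% in simulans. The signals of 7 male reproductive genes summed to 234 to 483 on the 7 arrays, and 1 of these genes was below the median control on all of them.

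**Figure D1:**
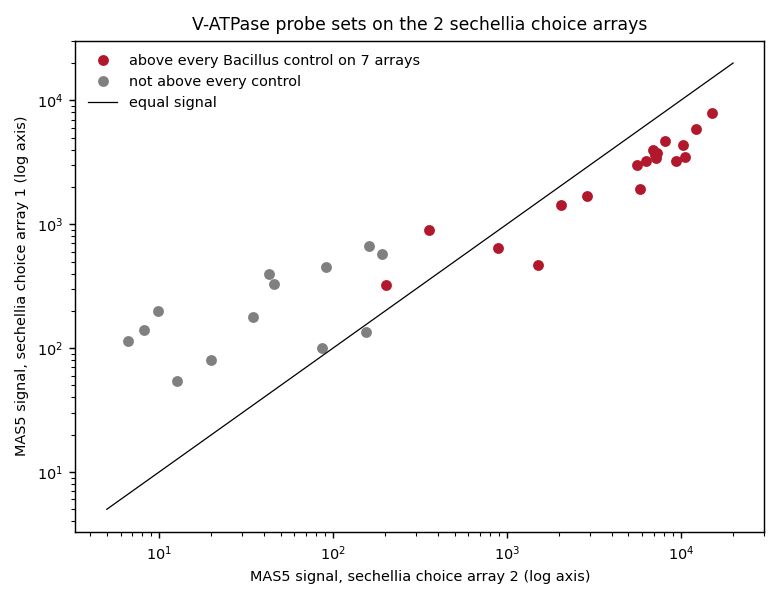
MAS5 signal of the 32 V-ATPase probe sets on array 1 (vertical, log axis) and array 2 (horizontal, log axis) of sechellia choice; the line marks equal signal. Most members that are well measured lie below the line and most others above it, the compression described for array 1.

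In both species, 1 gene each was well measured for the subunits B to H, c, c″ and d, with 4 genes for subunit a and 2 for subunit e. Well measured means above the brightest Bacillus control of the same array on all 7 arrays, which held for 19 probe sets of 18 genes. In V1 they were Vha55 (subunit B, which binds nucleotide), Vha44 (C, a clamp between the sectors), Vha36-1 (D) and Vha14-1 (F) of the central rotor, Vha26 (E) and Vha13 (G) of the outer stalks, and VhaSFD (H, a regulator of ATP use). In V0 they were 4 paralogues of the large subunit a, which holds the proton channels, Vha16-1 of the rotating c ring with 2 probe sets, VhaPPA1-1 (c″), VhaAC39-1 (d, which joins rotor and ring), VhaM9.7-b and VhaM9.7-c of the small subunit e, and the accessory proteins VhaAC45 and VhaAC45RP. Subunit A, which splits the ATP, was represented only by Vha68-3, at 7.2 to 58.1. Vha68-1 and Vha68-2 are not analysed here. Signals of different probe sets are not compared with each other, because brightness depends on the probes.

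Other paralogues exceeded the brightest control on some of the 7 arrays, such as Vha16-4 on 6 and Vha36-3 on 5, or on none. The 13 members that were not well measured fell short of the brightest control on at least 1 of the 7 arrays. Of these, 7 had a mean below the limit of the filter on dim probe sets, a geometric mean signal of 49.9 over the 8 arrays, and were not tested: Vha68-3, Vha36-2, Vha14-2, Vha16-2, Vha16-3, Vha100-3 and VhaM9.7-a. Vha36-2 stayed at 5.4 to 12, below the median control on every one of the 7 arrays. VhaM9.7-a was above the median control on all 7 and had 20.0 in sechellia choice and 27.3 and 29.7 in sechellia no choice, against 55.3 and 50.2 in simulans choice and 83.6 and 78.2 in simulans no choice. It was not above the brightest control on any of the 7. Without the filter on dim probe sets it was called lower in sechellia, at a log2 difference averaged over treatments of -1.45 ± 0.42. On array 1 of sechellia choice it had 80.6.

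**Figure D2:**
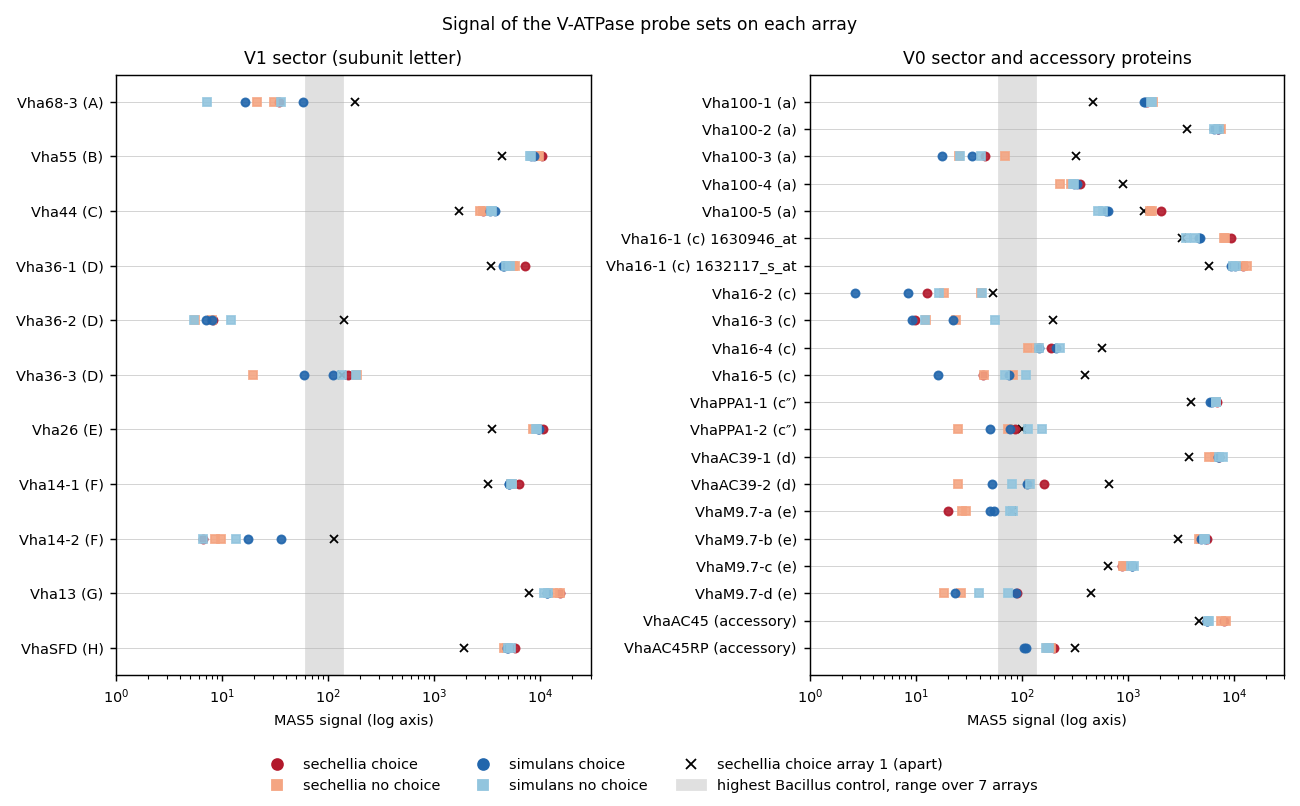
MAS5 signal (log axis) of each V-ATPase probe set on each array, by sector, with the subunit letter in brackets. Points are single arrays, crosses are array 1 of sechellia choice, and the grey band is the range over the 7 arrays of the brightest Bacillus control. The 19 well measured probe sets lie right of their arrays' brightest control, and Vha100-5 separates the species.

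The species differed most in Vha100-5, a paralogue of subunit a. It had a signal of 2052 in sechellia choice and 1635 and 1696 in sechellia no choice, against 655 and 630.1 in simulans choice and 584 and 523 in simulans no choice. Every sechellia array was above every simulans array, as was array 1 of sechellia choice at 1429.5. The log2 difference, sechellia minus simulans averaged over treatments, was 1.63 ± 0.07 (SE, n = 3 and 4 arrays; limma adjusted p = 1.06e-06), a factor of 3.10. It was 1.59 ± 0.09 in no choice and 1.68 ± 0.11 in choice (limma adjusted p = 6.99e-06 and 3.75e-05). With all 8 arrays it was 1.50 ± 0.15 (limma adjusted p = 0.000732), and Vha100-5 was then the only member called. The probes match D. melanogaster, so mismatches in either species can shift a signal without any change in RNA. In bodies fewer cells of a type and less RNA per cell cannot be told apart.

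The other 3 well measured paralogues of subunit a showed no called difference. Vha100-1, known in D. melanogaster from neurons, had 1512 in sechellia choice and 1646 and 1741 in sechellia no choice, against 1414 and 1446 in simulans choice and 1650.5 and 1701 in simulans no choice. Vha100-2 had 7086 in sechellia choice and 7329.6 and 7565 in sechellia no choice, against 6572 and 7033 in simulans choice and 6522 and 7182 in simulans no choice. Vha100-4 had 357 in sechellia choice and 232 and 294 in sechellia no choice, against 308 and 334 in simulans choice and 314 and 304 in simulans no choice. The species overlapped for all 3 genes. Their log2 differences were 0.05 ± 0.06, 0.09 ± 0.06 and -0.04 ± 0.13 (limma adjusted p = 0.588, 0.27 and 0.833).

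Vha16-1, the c-ring gene, was higher in sechellia on both of its probe sets, by unequal amounts. Probe set 1632117_s_at gave 12204 in sechellia choice and 12181 and 13377 in sechellia no choice, against 10269 and 9507 in simulans choice and 9844 and 10418 in simulans no choice. Probe set 1630946_at gave 9358 in sechellia choice and 8149.9 and 8247 in sechellia no choice, against 4734 and 4762 in simulans choice and 4341 and 3548 in simulans no choice. Neither overlapped between the species. The log2 difference was 0.32 ± 0.06 for 1632117_s_at (limma adjusted p = 0.00332) and 1.02 ± 0.07 for 1630946_at (limma adjusted p = 1.62e-05), a factor of 1.25 and 2.03. With all 8 arrays these were 0.05 and 0.64 (limma adjusted p = 0.917 and 0.249). On array 1 of sechellia choice they had 5829.6 and 3259.9, which is below every simulans array.

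Among the V1 subunits, 4 were called higher and 1 lower in sechellia. Vha36-1, of the rotor, had 7188 in sechellia choice and 5526 and 5752 in sechellia no choice, against 4493 and 4535 in simulans choice and 4744 and 5121 in simulans no choice. Its log2 difference was 0.43 ± 0.05 (limma adjusted p = 0.000331), with all 3 sechellia arrays above all simulans arrays, and 0.17 with all 8 arrays (limma adjusted p = 0.683). Vha13, of the stalks, had 15210.1 in sechellia choice and 13247 and 15364 in sechellia no choice, against 11515 and 11526 in simulans choice and 10828 and 11729 in simulans no choice. That was a log2 difference of 0.37 ± 0.07 (limma adjusted p = 0.00263), again without overlap, and of 0.13 with all 8 arrays (limma adjusted p = 0.778). Vha55, subunit B, had 10314 in sechellia choice and 9374 and 9640.3 in sechellia no choice, against 8790.2 and 8164 in simulans choice and 8047 and 8219 in simulans no choice. The species did not overlap and the log2 difference was 0.25 ± 0.05 (limma adjusted p = 0.00517), but -0.06 with all 8 arrays (limma adjusted p = 0.915).

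Vha44, subunit C, ran the other way. It had 2897 in sechellia choice and 2669 and 2866 in sechellia no choice, against 3324 and 3769 in simulans choice and 3415 and 3486 in simulans no choice, and its log2 difference was -0.30 ± 0.06 (limma adjusted p = 0.00643) without overlap, and -0.50 with all 8 arrays (limma adjusted p = 0.145). Vha14-1, subunit F, was called at 0.16 ± 0.05 (limma adjusted p = 0.0323), although its species overlapped: it had 6307 in sechellia choice and 5316 and 5442 in sechellia no choice, against 5112 and 5019 in simulans choice and 5308 and 5423 in simulans no choice. Its difference was -0.08 with all 8 arrays (limma adjusted p = 0.838). Only the choice arrays separated for it, with log2 differences of 0.32 ± 0.07 in choice and 0.00 ± 0.06 in no choice (limma adjusted p = 0.0184 and 0.973), and the difference between these, the interaction, was 0.31 ± 0.10 (limma adjusted p = 0.139). Vha26 and VhaSFD, with signals of 8478 to 10527 and 4556 to 5798 over the 7 arrays, differed by 0.04 ± 0.05 and 0.07 ± 0.05 (limma adjusted p = 0.639 and 0.378). The rotor paralogue Vha36-3 had 155 in sechellia choice and 19.7 and 188 in sechellia no choice, against 59.1 and 111 in simulans choice and 135 and 181 in simulans no choice, a spread within groups that left an SE of 0.70.

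In the membrane sector the subunits d, c″ and e gave small differences. VhaAC39-1 had 7305 in sechellia choice and 5824 and 6704 in sechellia no choice, against 7058 and 7208 in simulans choice and 7323 and 7836 in simulans no choice. Averaged over treatments VhaAC39-1 differed by -0.12 ± 0.06, which was not called in the fit of 7 arrays. It was lower in sechellia in no choice, at log2 -0.28 ± 0.08 (limma adjusted p = 0.0321), and gave 0.03 ± 0.10 in choice (limma adjusted p = 0.854), with an interaction of 0.31 ± 0.13 (limma adjusted p = 0.257). VhaPPA1-1 had 6882 in sechellia choice and 6747 and 6798 in sechellia no choice, against 6265 and 6019.8 in simulans choice and 6793 and 6845 in simulans no choice, a difference of 0.08 ± 0.05 (limma adjusted p = 0.259). VhaM9.7-b had 5579.5 in sechellia choice and 4740.4 and 4893 in sechellia no choice, against 4942 and 5346 in simulans choice and 5184 and 5294 in simulans no choice, and differed by 0.00 ± 0.05 (limma adjusted p = 0.986). VhaM9.7-c, the other well measured copy of subunit e, was lower in sechellia. It had 891 in sechellia choice and 907 and 914 in sechellia no choice, against 1091 and 1099.9 in simulans choice and 1135 and 1084 in simulans no choice, a log2 difference of -0.29 ± 0.07 (limma adjusted p = 0.00906) without overlap, and -0.41 with all 8 arrays (limma adjusted p = 0.111).

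The tested V0 paralogues that were not well measured gave no called difference. Vha16-4 had 190.4 in sechellia choice and 142 and 114 in sechellia no choice, against 145 and 211 in simulans choice and 232 and 147 in simulans no choice. VhaPPA1-2 had 86.4 in sechellia choice and 74.0 and 24.9 in sechellia no choice, against 50.5 and 77.6 in simulans choice and 116 and 156 in simulans no choice. Its log2 difference in no choice was -1.64 ± 0.57, not called in that fit. It was called lower in no choice after quantile normalization, median centring or cyclic loess, and without sechellia no choice array 1. VhaAC39-2 had 162 in sechellia choice and 116 and 25.0 in sechellia no choice, against 112 and 51.9 in simulans choice and 80.7 and 119 in simulans no choice. All 3 overlapped between the species. Vha16-5 had 42.9 in sechellia choice and 82.7 and 44.1 in sechellia no choice, against 16.3 and 75.4 in simulans choice and 69.4 and 109 in simulans no choice. VhaM9.7-d had 91.1 in sechellia choice and 18.7 and 26.5 in sechellia no choice, against 87.8 and 23.6 in simulans choice and 73.8 and 39.5 in simulans no choice. Its geometric mean over the 7 arrays was 43.0, below the limit of the filter. The filter also counts array 1 of sechellia choice, where VhaM9.7-d had 451. None of these 5 was called, and with Vha36-3 their median SE was 0.586 on the log2 scale, against 0.0588 for the well measured members.

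Of the accessory proteins, VhaAC45, which assists the assembly and sorting of the pump, was higher in sechellia. It had 8065 in sechellia choice and 7545 and 8365 in sechellia no choice, against 5621 and 5637 in simulans choice and 5802 and 5698 in simulans no choice. The log2 difference was 0.49 ± 0.05 (limma adjusted p = 0.000195), without overlap, and 0.29 ± 0.21 with all 8 arrays (limma adjusted p = 0.414). VhaAC45RP, its relative, ranged from 106 to 202 and differed by 0.48 ± 0.18 (limma adjusted p = 0.0704). VhaAC45RP gave log2 differences of 0.06 ± 0.22 in no choice and 0.90 ± 0.28 in choice, and some other settings, given at the end, called it. ATP6AP2, once named VhaM8.9 and therefore outside the symbol rule, is the other accessory protein of the pump and ran opposite to VhaAC45. It had 5164.5 in sechellia choice and 4677 and 4813.5 in sechellia no choice, against 7215 and 7122 in simulans choice and 7346 and 7484 in simulans no choice, a log2 difference of -0.56 ± 0.05 (limma adjusted p = 4.33e-05), and -0.80 with all 8 arrays (limma adjusted p = 0.0656).

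**Figure D3:**
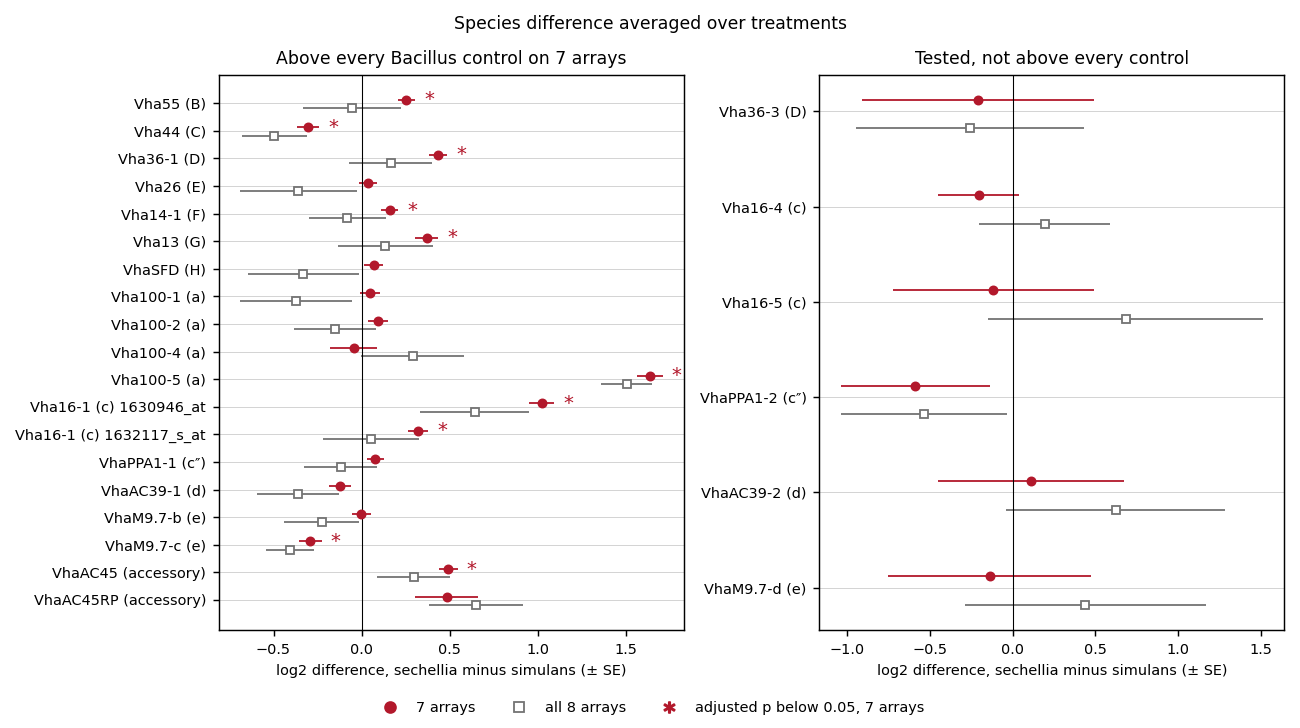
Log2 difference of the 25 tested V-ATPase probe sets, sechellia minus simulans averaged over treatments, with SE bars, from 7 arrays (filled) and all 8 arrays (open). Stars mark an adjusted p below 0.05 with 7 arrays. Vha100-5 lies at 1.63 and the Vha16-1 probe set 1630946_at at 1.02, and the other called members lie between -0.30 and 0.49.

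Counted together, the members differed between the species about as often as the tested probe sets did. Of 25 members tested, 8 were higher and 2 lower in sechellia with 7 arrays, where 32.5% of all 13138 tested probe sets were called, 16.9% higher and 15.6% lower. The median log2 difference was 0.16 over the 7 well measured V1 probe sets and 0.08 over the 12 well measured V0 probe sets, beside 0.07 over all tested probe sets. Of the 25 members tested, 2 were called and differed at least 2-fold, where 7.67% of all tested probe sets did so. They were Vha100-5 and the Vha16-1 probe set 1630946_at. The arrays of the species did not overlap for 9 of 25 members, 7 higher and 2 lower in sechellia, against 34.8% of all tested probe sets (19.0% higher and 15.8% lower). Median centring moved the median over all probe sets tested to -0.05 and the split of calls to 5 higher and 3 lower, and with all 8 arrays, which called 9.87% of all tested probe sets, 1 member was called. Relative to the median of all probe sets, each of the 10 called members kept its sign. No other outcome was open, because that median, 0.07, was smaller in size than every called difference. After median centring Vha14-1, Vha55 and a Vha16-1 probe set were no longer called, and VhaAC39-1 was.

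Under each treatment by itself, Vha100-5, Vha13, both probe sets of Vha16-1, Vha55 and VhaAC45 were called higher in sechellia. In no choice 6 members were higher and 3 lower (Vha44, VhaAC39-1 and VhaM9.7-c), where 28.2% of all tested probe sets were called, 14.5% higher and 13.7% lower. In choice 8 members were higher, Vha14-1 and Vha36-1 among them, and 0 were lower by limma's adjusted p, with 12 of 25 at an unadjusted p below 0.05; of all tested probe sets 19.4% were called there, 9.61% higher and 9.78% lower. Vha44 and VhaM9.7-c gave -0.29 ± 0.10 and -0.30 ± 0.10 in choice (limma adjusted p = 0.0781 and 0.0774). With all 8 arrays only Vha100-5 was called in each, where 4.22% of all tested probe sets were called in no choice and 4.14% in choice. Median centring gave 3 higher and 4 lower in no choice, and 4 higher and 2 lower in choice, with Vha44 and VhaM9.7-c as those lower in choice. The interaction, which tests whether the species difference changed with treatment, passed for 0 members in limma with 7 arrays (6 of 25 at an unadjusted p below 0.05) and for 0 with 8 (1 of 25), where 2.79% and 0.0152% of all tested probe sets were called.

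Choice against no choice changed no member past the threshold in either species. In sechellia, limma called 0 of 25 members with 7 arrays (7 at an unadjusted p below 0.05) and 0 with 8 (4), where 2.49% and 0.0533% of all tested probe sets were called. In simulans the count was also 0 with 7 arrays (5 at an unadjusted p below 0.05) and 0 with 8 (0), where 0.274% and 0.00761% were called. In sechellia the log2 differences of all 7 well measured V1 probe sets were above 0, at 0.07 to 0.35 with a median of 0.23, and those of 8 of the 12 V0 probe sets, with a median of 0.09; over all tested probe sets the median was 0.04. With all 8 arrays the V1 differences were instead all below 0, at -0.55 to -0.18, so the direction in sechellia depends on which choice array is read. Median centring of the 7 arrays shifted all probe sets together, with medians of 0.09 over the 7 V1 probe sets and -0.10 over all tested. In simulans the V1 values were -0.13 to 0.06, with a median of 0.03 beside 0.00 over all tested probe sets.

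Vha36-1 came nearest to the threshold for choice in sechellia. With 7188 in sechellia choice against 5526 and 5752 in sechellia no choice, its log2 difference was 0.35 ± 0.08 (limma adjusted p = 0.0652), and array 1 of sechellia choice, at 3427, lay below both. In simulans it was -0.13 ± 0.07 (limma adjusted p = 0.423). The interaction was 0.48 ± 0.11 (limma adjusted p = 0.0551) and -0.06 with all 8 arrays (limma adjusted p = 0.96). After quantile normalization the difference in sechellia and the interaction passed, at 0.33 and 0.44 (limma adjusted p = 0.0329 and 0.0311), whereas after median centring the difference in sechellia was 0.22 (limma adjusted p = 0.267). VhaSFD followed at 0.30 ± 0.08 in sechellia (limma adjusted p = 0.109) and -0.07 ± 0.07 in simulans (limma adjusted p = 0.7). In simulans the largest difference of a well measured member with choice was that of VhaAC45RP, with 106 and 110.4 in simulans choice against 180.3 and 170.3 in simulans no choice, at -0.70 ± 0.22 (limma adjusted p = 0.21).

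**Figure D4:**
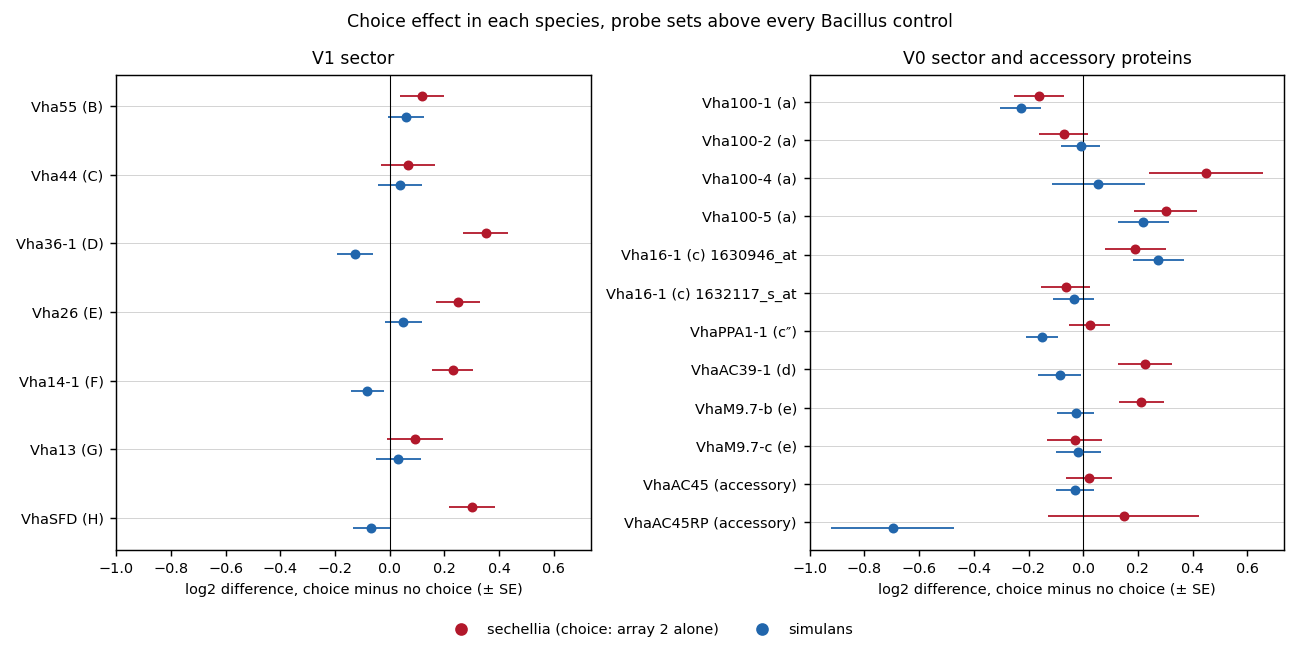
Log2 difference of the 19 well measured V-ATPase probe sets, choice minus no choice, with SE bars, in sechellia (red, choice being array 2 alone) and simulans (blue), from the fit of 7 arrays. The V1 values in sechellia lie between 0.07 and 0.35 and those in simulans between -0.13 and 0.06, and none passed the threshold.

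Genes around the pump differed between the species in both directions. Of 16 probe sets of the F-type ATP synthase, the mitochondrial relative that runs in the direction of ATP synthesis, 7 were higher and 0 lower in sechellia with 7 arrays, where 16.9% of all tested probe sets were higher and 15.6% lower, and 0 were called with 8. Their median log2 difference was 0.14 with 7 arrays, beside 0.07 over all tested probe sets, and -0.09 with 8, beside 0.14. ATPsynC, of its membrane ring, was higher by 0.69 ± 0.05. ATPsynbeta was higher by 0.22 ± 0.06 for probe set 1633673_a_at, with signals of 17516 to 23271 over the 7 arrays. Its dim probe set 1630984_at, at 169 to 540, was higher by 0.90 ± 0.16. ATPsynE was higher by 0.34 ± 0.06, and ATPsyngamma by 0.32 ± 0.06 for probe set 1627018_s_at and 0.22 ± 0.07 for probe set 1632838_at. Of the 3 tested genes listed for assembly and regulation of the pump, Rbcn-3B, part of a complex that joins V1 to V0, was higher by 0.56 ± 0.05 (limma adjusted p = 8.95e-05), and CG5969, the counterpart of the yeast assembly factor Vma21, was lower at -0.31 ± 0.05. Sirup, lower at -0.50 ± 0.09, is known as an assembly factor of a mitochondrial respiratory complex. With all 8 arrays only Sirup of these was called.

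Lysosomal genes, whose proteins work in the acid that the pump makes, were split. Of 15 tested, 6 were higher and 6 lower in sechellia with 7 arrays, and 2 higher and 3 lower with 8, where 32.5% and 9.87% of all tested probe sets were called. The median log2 difference was 0.25 with 7 arrays, beside 0.07 over all tested probe sets, and 0.07 with 8, beside 0.14. Cln3 and Lamp1, both of the lysosomal membrane, were higher by 1.25 ± 0.12 and 1.13 ± 0.18 (limma adjusted p = 8.17e-05 and 0.00167), and the cathepsin gene CtsF and the saposin gene Sap-r were lower at -0.999 ± 0.12 and -0.86 ± 0.06 (limma adjusted p = 0.000353 and 1.66e-05). These 4 were also called with 8 arrays. Among 10 probe sets of ion exchangers, chloride channels and NKCC, Nha2 and Nhe1 were higher, by 0.53 ± 0.12 and 0.39 ± 0.13, and ClC-b lower, at -0.42 ± 0.11. None of the 10 was called with 8 arrays in limma. Of 6 genes of TORC1 and the Ragulator, the nutrient-sensing machinery on the lysosome, Lamtor1 was higher by 0.32 ± 0.10 and the other 5 were not called. None of the 6 was called with all 8 arrays, where Lamtor1 gave 0.37.

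Markers of organs rich in the pump were measured beside these results. For the Malpighian tubule, 8 probe sets of 7 genes summed to 5918 in sechellia choice, 4954 and 4988 in sechellia no choice, 5309 and 5426 in simulans choice, and 5294 and 5766 in simulans no choice, with 3 called higher and 2 lower in sechellia. For the midgut, all 5 protease genes (Jon65Aiv, Jon25Biii, Jon74E, alphaTry and betaTry) were lower in sechellia with 7 and with 8 arrays, and within sechellia 4 were higher and 1 lower in choice with 7 arrays (1 higher and 0 lower with 8); they had summed signals of 3101 in sechellia choice and 1090 to 1227 in sechellia no choice, against 62807 and 63562 in simulans choice and 54424 and 61138 in simulans no choice. Ptx1, a marker of the middle midgut with 2 probe sets, summed to 523 in sechellia choice and 249.7 and 295 in sechellia no choice, against 282.6 and 481 in simulans choice and 400.1 and 401 in simulans no choice, and was not called. Head and eye markers, 3 genes, summed to 683 in sechellia choice and 616 and 619 in sechellia no choice, against 431.3 and 432.5 in simulans choice and 166 and 218 in simulans no choice, with both tested genes called higher in sechellia. Of all tested probe sets, 32.5% were called between the species with 7 arrays and 9.87% with 8. For choice in sechellia the shares were 2.49% and 0.0533%. The part of these organs in the differences of the pump genes was not tested.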

How the data were processed

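The authors deposited linear MAS5 signal, an intensity per probe set; the submitters' processing notes name MAS5, and its version and settings are not given in the sources used here. With 2% trimmed at each end the mean was 500 on each array, so the deposited intensities were taken to log2 with no further scaling. Of 18952 probe sets, 183 controls and the dimmest 30% of the remainder (mean log2 over 8 arrays) were left out, which left 13138. The 4 groups were fitted on 7 arrays, each with a mean of its own, in limma 3.58.1 under R 4.3.3, with variances moderated by eBayes along the mean signal (its trend option), with 3 residual degrees of freedom and no block. A call is a Benjamini-Hochberg adjusted p below 0.05 over all tested probe sets. Errors after ± are standard errors of that fit. Symbols come from the probe annotation, where 13647 probe sets carry 1 symbol; no sequence and no position is given.

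Members, lists and the array left out were chosen with earlier results of these data known. Named genes were the called members, the tested members of subunits with paralogues, and in each related list at most the 4 largest called differences; VhaM9.7-a, Vha26, VhaSFD, VhaAC45RP and ATP6AP2 were added after their values were seen. Alternatives were other scalings, filters and log scales, no trend, a replicate block, arrays left out in turn and fits of only the arrays compared. The number of arrays limits the precision. The labels do not say whether same-numbered arrays belong together. Deviations of same-numbered arrays from their group means correlated at -0.00207 to 0.0218 between the 3 groups that kept both arrays. For pairs of groups with sechellia choice they correlated at -0.123 to 0.0523. Such correlations cannot show how the arrays were processed.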

Additional observations from a re-analysis of the deposited data

How the results depend on the processing

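With 7 arrays, limma called 10 members between the species averaged over treatments, 9 in no choice, 8 in choice and 0 for choice in sechellia, for choice in simulans and for the interaction. With all 8 arrays the species counts were 1, 1 and 1, and Vha14-1 and Vha55 reversed, to log2 differences of -0.0809 and -0.0559. Without an intensity trend they were 6, 3 and 4, and from only the arrays compared 6 in no choice. Leaving out single arrays of the 7 gave 9 to 10 averaged over treatments, 4 to 9 in no choice (4 without simulans no choice array 1, 5 without array 2) and 4 to 8 in choice (4 without either simulans choice array); without array 2 of sechellia choice only the comparisons in no choice and in simulans could be fitted. For choice in sechellia 1 member was called after quantile normalization, 3 after cyclic loess and 1 with the dimmest 50% left out. For the interaction the counts were 1, 1 and 1. The member was Vha36-1, joined for choice in sechellia under loess by Vha26 and VhaSFD. With the replicate number as a block the counts were 10, 9 and 8 for the species and 0 for choice and the interaction, with 7 higher and 1 lower (Vha44) in choice. Among log2 differences that were uncalled in both fits, 33 values of 12 genes changed sign. For the difference averaged over treatments, Vha100-5 was called under every alternative, at 1.50 to 1.67. The Vha16-1 probe set 1630946_at, Vha36-1, VhaAC45 and VhaM9.7-c were called there under all of them except with 8 arrays. Other settings called more members between the species. In no choice the counts were 12 after quantile normalization, 11 after cyclic loess and 10 with the dimmest 50% left out. Vha36-1 was added there each time. In choice VhaSFD was added under these settings, and averaged over treatments VhaM9.7-a was added without the dim filter. Vha100-2 was added in no choice after quantile normalization, and VhaAC39-1 averaged over treatments after median centring. VhaAC45RP was added in choice with the dimmest 50% left out or no intensity trend, and averaged over treatments without that trend. Vha36-3 was added as lower in no choice without array 2 of sechellia no choice, which left only array 1, at 19.7. The added calls of VhaPPA1-2 are given above. The causes of these shifts were not tested.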
